A study of Mus musculus with 10 samples.

Results

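The chemokine family was read across 10 bulk RNA-seq libraries of B16F10 tumors, a transplantable mouse melanoma. Its members are all rows whose symbol is Ccl, Cxcl, Ccr or Cxcr followed by a number and at most 1 letter, which gave 53 of 55401 gene rows, 37 ligands and 16 receptors. The samples are 5 *Mir25* knockout (KO) tumors and 5 non-targeting control (NTC) tumors, taken on day 15 from female C57BL/6J mice that the methods give as 9 to 12 weeks old. Every mouse, KO and NTC alike, received Comb: GVAX, which is irradiated B16 cells secreting GM-CSF, as 1000000 cells on days 1 and 4, and anti-PD-1 antibody at 10 mg/kg on days 6, 9 and 12. Both cell lines were made with the lentiCRISPR v2 vector. The methods describe at least 2 guide RNAs per target, and the labels do not say which line each tumor grew from. Only the injected tumor cells were edited, so the leukocytes and stroma of the host keep *Mir25*.

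Chemokines are small secreted proteins that bind G protein-coupled receptors on leukocytes and guide the cells along a gradient. Each receptor marks certain cell types, so a ligand is described by the cells it draws: CXCR2 ligands draw neutrophils, CCR2 ligands draw monocytes, CXCR3 ligands draw activated T and NK cells, and CCR7 leads mature dendritic cells to lymph nodes. In tumors, most ligands come from macrophages, dendritic cells, fibroblasts and interferon-exposed tumor cells, while the receptors are carried mainly by the incoming leukocytes. The members were placed in 10 groups by a main receptor, although several ligands bind more than one. Whether each ligand acts through that receptor here was not tested.

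KO libraries held 23243707 to 27006075 reads on genes, and NTC libraries 11896643 to 28682130. NTC replicate 1 stood apart: it had the lowest total, 42.9% of its reads lay outside genes against 17.5% to 28.2% in the other tumors, and 33193 genes had a count against 22192 to 25435. Each comparison is therefore given over all 10 tumors and over the 9 without it. The set of 9 was chosen with earlier results of these data known. *Mir25* had 0 reads in every tumor, so these files give no check of the knockout. Levels are in CPM, reads per 1000000 of a library size multiplied by a scaling factor (TMM). The factor was 0.625 for NTC 1 and 0.969 to 1.11 for the other tumors, so it raises the values of NTC 1 most. Summed over 10 pan-leukocyte markers, KO tumors had 825 to 3298 CPM with a median of 1657. NTC tumors had 521 to 2626 CPM with a median of 970, the highest being NTC 1. The leukocyte markers had a median log2 fold change, KO over NTC, of 0.85 over 10 tumors and 1.52 over 9. The 8 macrophage markers had medians of 0.88 and 1.62, the 8 T cell markers 1.17 and 1.49, and the 8 melanoma markers -0.12 and -0.28. In bulk tissue, fewer cells of a type and less RNA per cell cannot be told apart.

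Between 12944 and 75862 reads per tumor fell on members, and 40 to 46 of the 53 members had a count in each tumor. A few ligands held most of the signal. By share of summed ligand CPM, *Ccl6* came first with 23.7%, then *Cxcl9* with 17.2%, *Ccl8* with 15.1%, *Cxcl10* with 10.5% and *Ccl9* with 8.50%, together 75.0%. Per kilobase of exon, the order of mean level over 10 tumors was *Ccl8* (380 ± 268 CPM per kb, SD), *Ccl6* (169 ± 167), *Cxcl9* (73.0 ± 34.2) and *Cxcl10* (59.5 ± 16.8), and neighbours in this order differed by less than their spread between tumors. Among receptors, *Ccr1* was at 12.4 ± 12.0 CPM per kb and *Ccr2* at 11.2 ± 7.78, both carried by monocytes and macrophages. Their levels per kilobase lay within each other's spread.

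Summed ligand levels were 1521, 1474, 720, 743 and 2681 CPM in KO tumors 1 to 5 and 2837, 493, 1013, 441 and 893 CPM in NTC tumors 1 to 5. Summed receptor levels were 342, 454, 165, 156 and 688 CPM in the KO tumors and 660, 72.9, 192, 84.3 and 210 CPM in the NTC tumors. The groups overlapped in both sums: KO 5 and NTC 1 were the highest tumors, and NTC 2 and NTC 4 the lowest. Of the 35 members tested over all 10 tumors, NTC 1 was the highest tumor for 18 and KO 5 for 8. NTC 2 and NTC 4 were each the lowest for 14. These ranks and sums are of CPM after TMM scaling, and the high rank of NTC 1 depends in part on its low factor.

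**Figure D1:**
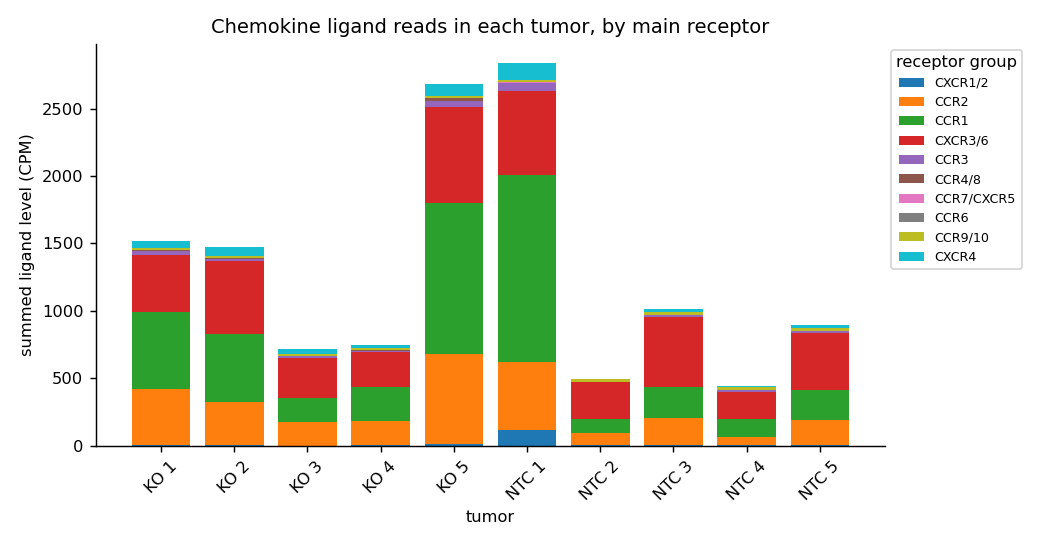
Summed chemokine ligand level of each tumor in CPM (bar height), divided by the main receptor of the ligands (colors), for KO tumors 1 to 5 and NTC tumors 1 to 5. KO 5 (2681 CPM) and NTC 1 (2837 CPM) stand above the other 8 tumors (441 to 1521 CPM), and NTC 1 holds the only visible CXCR1/2 block (116 CPM).

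Of the 53 members, 35 passed the filter on low counts over 10 tumors and 36 over 9, *Ccr8* being the added one. The other members had 0 to 215 reads over all tumors together. No read was counted in any tumor on *Ccl21a*, *Ccl21b*, *Ccl21d*, *Ccl27b* or *Cxcl17*; the *Ccl21* and *Ccl27* genes have near-identical copies in the mouse genome, and reads that match several copies were not counted, so their levels are uncertain.

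With edgeR's quasi-likelihood test, no member had an adjusted p under 0.05 with an absolute log2 fold change above 1, in either set of tumors. Over all genes tested, 0.019% were called over 10 tumors and 0.106% over 9. The smallest adjusted p of a member was 0.247 over 10 tumors (*Ccr7*) and 0.117 over 9 (*Cxcr3*). At an unadjusted p under 0.05, over 10 tumors, 4 members were higher in KO (*Ccr7*, *Cxcr3*, *Ccl22* and *Ccl17*), against 3.99% of all genes, and 1 was lower (*Cxcl2*), against 4.86%. Over 9 tumors 15 members were higher, against 12% of all genes, and 1 was lower (*Ccl25*), against 8.1%. The log2 fold change was above 0 for 21 of 35 members over 10 tumors, where 51.3% of all genes were above 0, and for 30 of 36 over 9, where the share was 48.1%. With DESeq2 in place of edgeR, 1 member was called higher over 10 tumors (*Ccr7*), against 0.152% of all genes, and 8 over 9 tumors (*Ccr7*, *Cxcr3*, *Ccl22*, *Ccl6*, *Ccl8*, *Ccl9*, *Cxcl16* and *Cxcr4*), against 3.36%.

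Receptors and ligands are given apart, and the difference between them was not tested. The 9 receptors tested over 10 tumors all had a log2 fold change above 0 with a median of 0.72, and the 10 tested over 9 tumors ran from 1.05 to 1.92 with a median of 1.48. The 26 ligands tested had a median of -0.03 over 10 tumors, with 12 above 0, and of 0.82 over 9 tumors, with 20 above 0. The median over all genes was 0.01 and -0.02. Leukocyte markers moved in the same direction as the receptors. With the mean log2 level of the pan-leukocyte markers as a covariate, the receptor medians were -0.10 over 10 tumors and 0.12 over 9, and those of all members -0.27 and 0.01. In that fit over 10 tumors, 3 members had an unadjusted p under 0.05 on the higher side (*Ccr7*, *Cxcr3* and *Ccl8*; 7.04% of all genes) and 4 on the lower side (*Ccl3*, *Ccl4*, *Cxcl10* and *Cxcl2*; 6.69%). Over 9 tumors 1 was higher (*Cxcr3*; 5.11%) and 3 were lower (*Ccl4*, *Cxcl9* and *Cxcl10*; 4.23%).

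**Figure D2:**
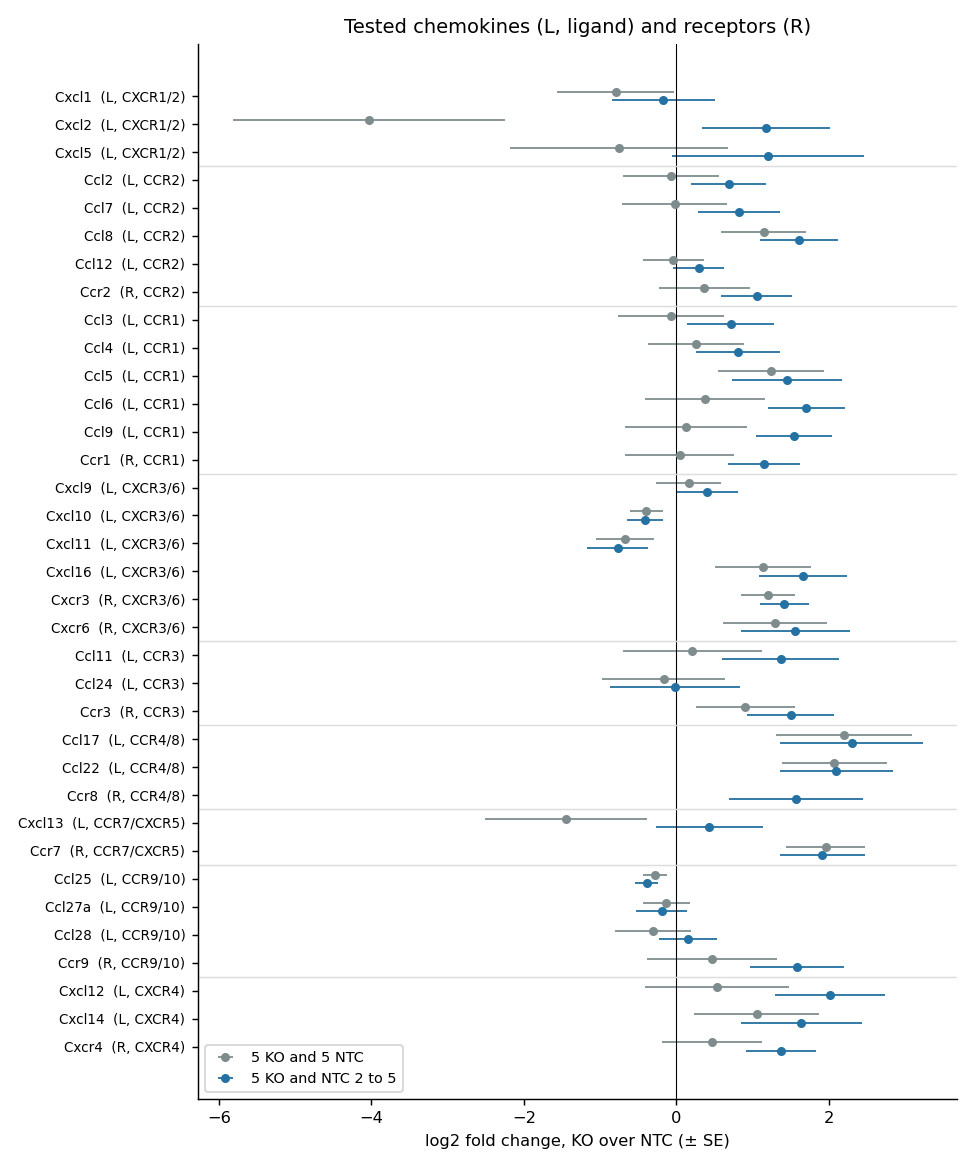
Log2 fold change of KO over NTC tumors with its standard error (horizontal axis) for 35 tested members, grouped by main receptor (vertical axis; L ligand, R receptor), from edgeR over all 10 tumors (gray) and over 9 without NTC 1 (blue). Among others, *Ccl17*, *Ccl22*, *Ccr7* and *Cxcr3* lie above 1 in both fits and *Cxcl10*, *Cxcl11* and *Ccl25* below 0 in both, and *Cxcl2* goes from -4.03 to 1.18.

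CXCR3 and its ligands serve activated T and NK cells. *Cxcr3* (chrX:101731535-101734269 on GRCm38, minus strand), which lets activated CD8 and Th1 cells follow interferon-induced ligands, was at 3.56, 7.81, 3.87, 4.93 and 8.48 CPM in KO tumors 1 to 5 and 4.30, 1.31, 2.46, 2.19 and 2.39 CPM in NTC tumors 1 to 5. Every KO tumor lay above NTC 2 to 5, and only NTC 1 reached into the KO range. The log2 fold change was 1.20 ± 0.36 (SE) over 10 tumors with an adjusted p of 0.307 by edgeR, and 1.42 ± 0.32 over 9 with 0.117. *Cxcr3* was the only tested member whose KO and NTC values did not overlap over 9 tumors, against 2.71% of all genes with every KO value above every NTC value. Over 10 tumors no member showed this, against 0.866%. With the leukocyte covariate the difference was 0.80 (unadjusted p = 0.00951 by edgeR) over 10 tumors and 0.87 (unadjusted p = 0.0180) over 9.

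For each of the 3 interferon-induced ligands of CXCR3 the groups overlapped. *Cxcl9* was at 211, 311, 168, 116 and 357 CPM in KO tumors and 356, 98.7, 295, 94.1 and 195 CPM in NTC tumors, with wide overlap and a log2 fold change of 0.16 ± 0.42 over 10 tumors and 0.41 ± 0.40 over 9. *Cxcl10* was at 116, 96.6, 87.7, 104 and 174 CPM in KO tumors and 159, 153, 180, 92.2 and 176 CPM in NTC tumors. Here 4 KO tumors lay below 4 NTC tumors, while KO 5 and NTC 4 crossed over, and the log2 fold change was -0.39 ± 0.22 (adjusted p = 0.638 by edgeR) and -0.41 ± 0.23 over 9. *Cxcl11* was at 0.910 to 1.69 CPM in KO tumors and 1.07 to 3.87 CPM in NTC tumors, with log2 fold changes of -0.67 ± 0.38 and -0.77 ± 0.41. Of the *Cxcl11* exon bases, 41.7% are shared with *Gm2673* on the other strand, and 5.91% of those of *Cxcl10* with *Art3*. The strand setting of the counting is not given in the sources used here, so reads of such pairs cannot be told apart. Upstream of this response, *Ifng* had a log2 fold change of 0.58 ± 0.53 over 10 tumors and 0.63 ± 0.56 over 9, and *Irf1* -0.04 ± 0.16 and -0.09 ± 0.18, neither with an unadjusted p under 0.05 by edgeR. With the leukocyte covariate these were -0.41 and -0.20 over 10 tumors (unadjusted p = 0.306 and 0.225 by edgeR), and -0.95 and -0.38 over 9 (unadjusted p = 0.0222 and 0.0447).

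The promoter of *Cxcl10* is shown because it carries the motif by which interferon-activated factors are known to act on this gene. Promoters are RefSeq windows on GRCm38.p6 of 250 bases before to 50 after the start, held here for 38 of the 53 members. Capitals mark the interferon-response motif (GAAA, any 2 bases, GAAA) and, in the next lines, the NF-kB motif (GGG, any 3 bases, TTCC), on the strand of the gene, which is the minus strand.
*Cxcl10* interferon-response motif, chr5:92349085-92349110: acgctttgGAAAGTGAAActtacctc
*Cxcl10* NF-kB motif, chr5:92349031-92349056: aggggagaGGGAAATTCCaagttcat
*Cxcl10* NF-kB motif, chr5:92348976-92349001: ggtttacaGGGGACTTCCctcgggtt
Searched on both strands, the interferon-response motif occurred in 3 of the 38 member promoters (*Cxcl10*, *Ccl19* and *Cxcl14*), or 7.89%, and in 3.49% of 27025 promoters. The motif TTCNNNGAA occurred in 3 (*Ccl17*, *Ccr6* and *Cxcl14*) and in 8.47% of all. No match to either set of letters was found for *Cxcl9*, but promoters were held for only 38 of the 53 members. The letters searched are narrow, so the lack of a match does not show that *Cxcl9* lacks an interferon element.

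*Cxcl16* and *Cxcr6*, a membrane-bound ligand of myeloid cells and its receptor on tissue-resident T cells, overlapped between the groups. *Cxcl16* was at 94.3, 137, 39.9, 32.4 and 183 CPM in KO tumors and 103, 15.99, 39.2, 13.3 and 51.0 CPM in NTC tumors, and *Cxcr6* at 17.7, 41.0, 11.6, 7.63 and 50.9 CPM against 19.2, 3.38, 6.80, 2.96 and 20.8 CPM. In both genes KO 2 and KO 5 were highest and NTC 2 and NTC 4 lowest. The log2 fold changes were 1.14 ± 0.63 and 1.30 ± 0.69 over 10 tumors, and 1.66 ± 0.58 and 1.56 ± 0.71 over 9 (unadjusted p = 0.0165 and 0.0521 by edgeR). With the leukocyte covariate they were 0.21 and 0.22 over 10 tumors, and 0.08 and -0.12 over 9. *Cxcl16* shares 18.3% of its exon bases with *Zmynd15* on the other strand.

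**Figure D3:**
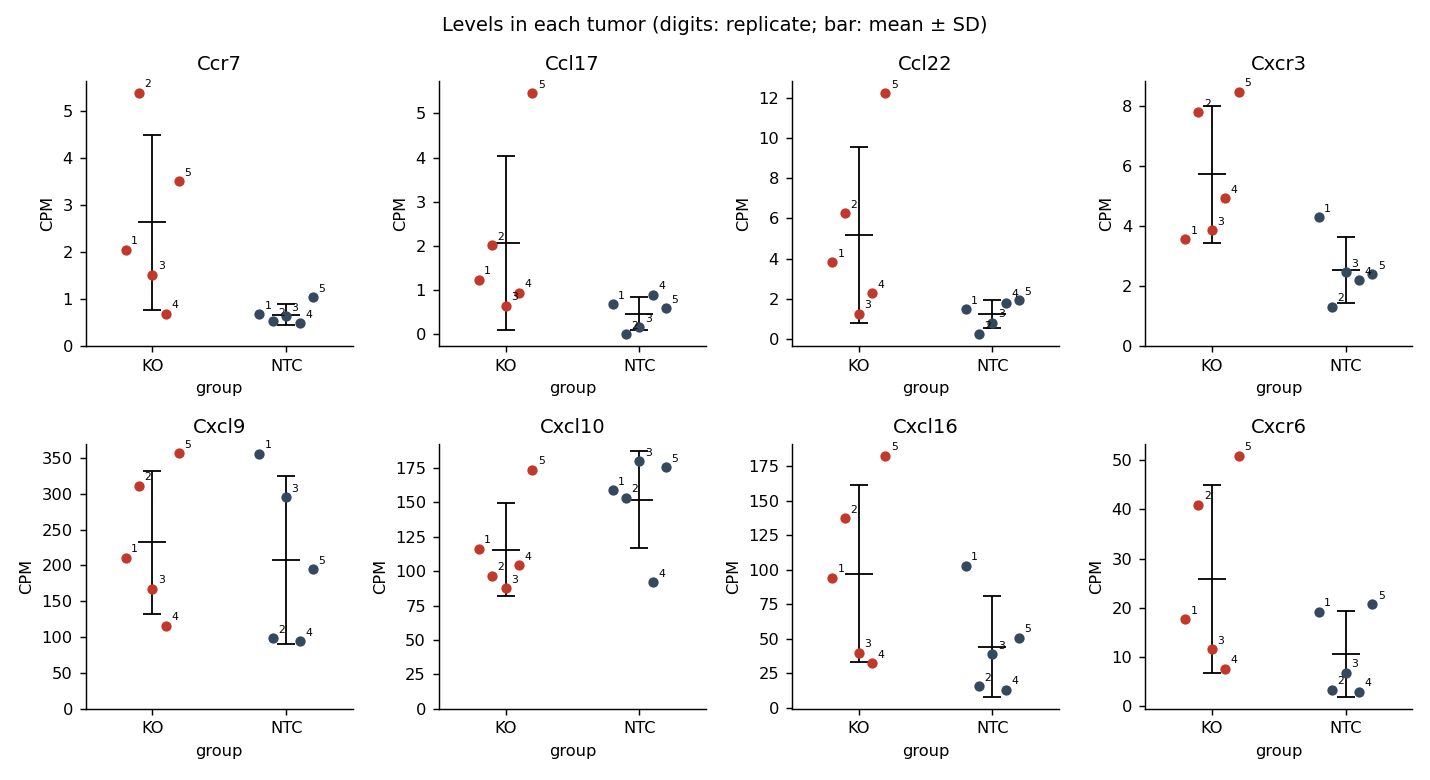
Level in CPM (vertical axes, each from 0) in the 5 KO tumors (red) and 5 NTC tumors (dark blue) of *Ccr7*, *Ccl17*, *Ccl22*, *Cxcr3*, *Cxcl9*, *Cxcl10*, *Cxcl16* and *Cxcr6*; digits give the replicate, and bars the mean with the SD. *Cxcr3* is lower in NTC 2 to 5 (1.31 to 2.46 CPM) than in any KO tumor (3.56 to 8.48 CPM), whereas *Cxcl10* is below 117 CPM in 4 of 5 KO tumors and above 152 CPM in 4 of 5 NTC tumors.

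*Ccr7*, *Ccl17* and *Ccl22* are hallmarks of mature migratory dendritic cells: CCR7 guides these cells and naive T cells, and CCL17 and CCL22 are the ligands of CCR4 on regulatory and type 2 T cells. *Ccr7* (chr11:99144196-99155077 on GRCm38, minus strand) was at 2.05, 5.38, 1.51, 0.684 and 3.51 CPM in KO tumors and 0.672, 0.524, 0.630, 0.487 and 1.04 CPM in NTC tumors. KO 4 alone fell inside the NTC range. The fitted difference was 1.96 ± 0.52 on the log2 scale over 10 tumors (adjusted p = 0.247 by edgeR, 0.0290 by DESeq2) and 1.92 ± 0.56 over 9 (adjusted p = 0.157 by edgeR). *Ccl22* was at 3.81, 6.26, 1.24, 2.27 and 12.3 CPM in KO tumors and 1.48, 0.229, 0.787, 1.79 and 1.91 CPM in NTC tumors, with KO 3 inside the NTC range. *Ccl17* was at 1.23, 2.01, 0.639, 0.936 and 5.46 CPM in KO tumors and 0.672, 0, 0.158, 0.893 and 0.589 CPM in NTC tumors, and again only KO 3 lay inside the NTC range. The log2 fold changes were 2.07 ± 0.69 and 2.20 ± 0.89 over 10 tumors, and 2.10 ± 0.74 and 2.30 ± 0.94 over 9, with adjusted p of 0.388 and 0.505 over 10 tumors by edgeR. *Ccl17* and *Ccl22* lie on chromosome 8, at chr8:94810453-94812036 and chr8:94745590-94751699 (plus strand).

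Markers of dendritic cells moved in the same direction as these genes, and this was not particular to them. Over 10 and 9 tumors the median log2 fold changes were 0.85 and 1.52 for pan-leukocyte markers and 0.88 and 1.62 for macrophage markers. They were 1.17 and 1.49 for T cell markers, -0.02 and 0.74 for B cell markers, and -0.17 and 2.68 for neutrophil markers. The 6 dendritic cell markers summed to 47.0 to 114 CPM in KO tumors and 22.4 to 64.0 CPM in NTC tumors. The median of their log2 fold changes was 1.10 with all tumors and 1.28 without NTC 1, with 2 and 3 of 6 at an unadjusted p under 0.05 on the higher side, against 3.99% and 12% of all genes. None of the 6 was at 0 in any tumor. With the leukocyte covariate over 10 tumors, the log2 fold change was 1.06 for *Ccr7* (unadjusted p = 0.0373 by edgeR), 1.01 for *Ccl22* (0.130) and 1.19 for *Ccl17* (0.194). Over 9 tumors it was 0.56 for *Ccr7* (unadjusted p = 0.230 by edgeR), 0.50 for *Ccl22* (0.471) and 0.87 for *Ccl17* (0.412), so *Ccr7* passed an unadjusted 0.05 in this fit only with NTC 1. The part of dendritic cell number in these differences was not tested.

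The receptors of CCL17, CCL22 and CCL1 were scarce. *Ccr4* was at 0.101 to 0.400 CPM in KO tumors and 0.0630 to 1.88 CPM in NTC tumors, and *Ccr8*, a receptor of tumor regulatory T cells, at 0.108 to 1.48 and 0.0315 to 0.520 CPM. *Ccr8* passed the filter over 9 tumors only, with a log2 fold change of 1.57 ± 0.88 (unadjusted p = 0.106 by edgeR). *Ccl1*, a ligand of CCR8, was at or below 0.622 CPM in every tumor.

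Members of lymphoid tissue were mostly low. *Cxcr5*, the receptor of follicular B and T cells, had 21 reads over all 10 tumors, and *Ccl19*, a ligand of CCR7, had 39. *Ccl19* was above 0 in all 5 KO tumors, at 0.144 to 0.400 CPM, and in 1 NTC tumor at 0.252 CPM. *Cxcl13*, the B cell attractant, was at 0.287 to 1.18 CPM in KO tumors, 0.0328 to 0.913 CPM in NTC 2 to 5 and 8.88 CPM in NTC 1. Its log2 fold change was -1.45 ± 1.06 with NTC 1 and 0.43 ± 0.70 without it. *Cxcl13* was also the one member whose 3′ UTR holds a match to the seed of miR-25, and the sequences are shown for that reason. In the mature miR-25-3p capitals mark the seed, bases 2 to 8, and in the site they mark its complement.
mmu-miR-25-3p, chr5:138165332-138165353, minus strand, GRCm38.p6: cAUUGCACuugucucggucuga
*Cxcl13* site, chr5:95960737-95960765, plus strand, GRCm38: ctgggaagctgGTGCAATgccatcatgag
The match begins at base 480 of an 800-base 3′ UTR of GENCODE M21 and is not followed by an A. Of 50 members with an annotated 3′ UTR, 1 held this 7-base match, or 2%, against 6.56% of 20999 genes.

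NTC 1 set the values of the neutrophil axis. *Cxcl2*, an early ligand of CXCR2, was at 1.56, 0.0379, 0.202, 1.12 and 1.73 CPM in KO tumors and 76.1, 0.524, 0.598, 0.162 and 0.277 CPM in NTC tumors. The difference was -4.03 ± 1.79 over 10 tumors on the log2 scale (unadjusted p = 0.0465 by edgeR, adjusted 0.553) and 1.18 ± 0.84 over 9 (unadjusted p = 0.192), so the direction turned on that library. *Cxcl3* was at 0 to 1.07 CPM in KO tumors, 0 to 0.0656 CPM in NTC 2 to 5 and 22.6 CPM in NTC 1, and *Cxcl5* at 0.202 to 6.75, 0 to 2.65 and 14.7 CPM. *Cxcl1* was low throughout, at 0.164 to 1.16 CPM in KO tumors and 0.104 to 2.42 CPM in NTC tumors. The receptor *Cxcr2* was at 0.901, 0.0758, 0.0673, 0.0720 and 1.20 CPM in KO tumors, 5.11 CPM in NTC 1, 0.0328 CPM in NTC 2 and 0 in NTC 3 to 5. Without NTC 1, each KO tumor lay above each NTC tumor for *Cxcr2*, but the lowest KO value was 0.0673 CPM against 0.0328 CPM in NTC 2. Such values are a few reads at most. *Cxcr2* had 94 reads in all, 38 of them in NTC 1, and did not pass the filter. Of the genes that passed it over 9 tumors, 2.71% had every KO value above every NTC value.

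Neutrophil markers were high in the same library. The 6 markers summed to 143 CPM in NTC 1, 4.98 to 15.3 CPM in NTC 2 to 5 and 11.1 to 79.0 CPM in KO tumors, and *Ly6g* was at 0 in at least 1 tumor. The 5 tested had a median log2 fold change of -0.17 with NTC 1 and 2.68 without. Their part in the *Cxcl2* and *Cxcl3* values was not tested.

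**Figure D4:**
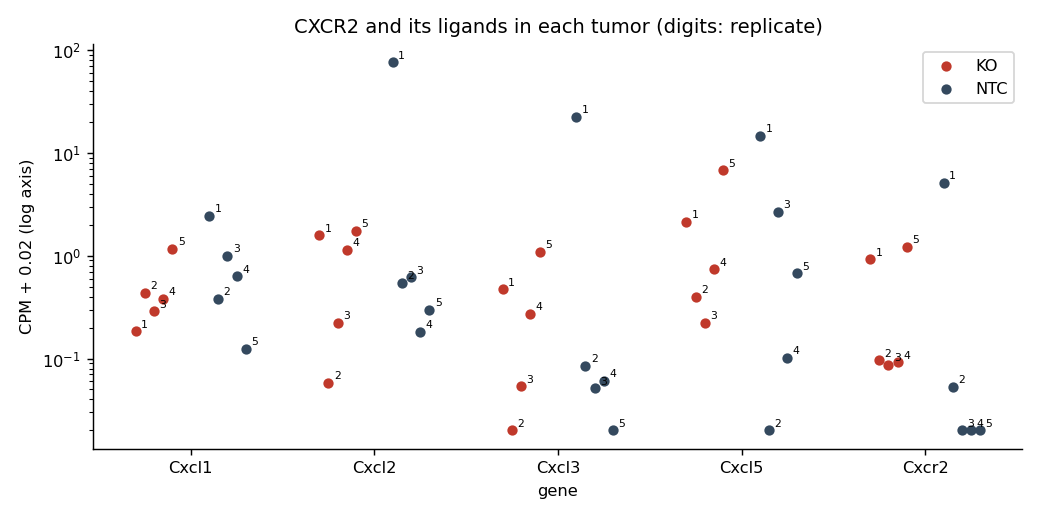
Level of *Cxcl1*, *Cxcl2*, *Cxcl3*, *Cxcl5* and *Cxcr2* in each tumor as CPM plus 0.02 on a log axis (KO red, NTC dark blue; digits give the replicate). NTC 1 is the highest point for each gene (2.42, 76.1, 22.6, 14.7 and 5.11 CPM), and the other NTC tumors lie between 0 and 2.65 CPM.

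*Cxcl1*, *Cxcl2* and *Cxcl3* lie in a cluster on chromosome 5, and their promoters share an element, shown to let the flanks be compared. Capitals mark the NF-kB motif, and all 3 sequences are on the plus strand, which is that of the genes.
*Cxcl1*, chr5:90891166-90891191: tgtactccGGGAATTTCCctggcccg
*Cxcl2*, chr5:90903794-90903819: tgagctcaGGGAATTTCCctggtccc
*Cxcl3*, chr5:90786020-90786045: gctgcgggGGGAATTTCCccagcccg
The 10 bases in capitals are identical in all 3, and begin at positions -71, -97 and -73 from the start of the gene. On either strand the NF-kB motif occurred in 8 of the 38 member promoters, or 21.1%, and in 5.52% of all promoters. The others were *Cxcl10*, *Ccl1*, *Ccl9*, *Ccl20* and *Ccr3*. *Cxcl1*, *Cxcl2* and *Cxcl3* hold further matches, and the shared one is shown. A match is a description of letters and not of binding. *Il1b*, whose product is known to act through NF-kB, was at 66.3 CPM in NTC 1, 1.11 to 8.95 CPM in the other NTC tumors and 2.32 to 14.4 CPM in KO tumors. *Tnf*, another such cytokine, was at 10.6 CPM in NTC 1 and 0.812 to 5.33 CPM in the other NTC tumors. In KO tumors *Tnf* was at 2.39 to 11.9 CPM, and KO 5 was the highest of all. The part of either cytokine, or of NF-kB, in the ligand values was not tested.

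CCR2 and its ligands recruit monocytes from blood. *Ccl8* was placed in this group, but whether mouse CCL8 acts through CCR2 in these tumors was not tested. *Ccl8* was at 323, 276, 138, 126 and 473 CPM in KO tumors and 263, 42.7, 119, 37.9 and 142 CPM in NTC tumors. KO 3 and KO 4 lay among the NTC values, and the log2 fold change was 1.15 ± 0.56 over 10 tumors (adjusted p = 0.599 by edgeR) and 1.61 ± 0.51 over 9 (adjusted p = 0.176). *Ccl2*, the leading attractant of monocytes, was at 41.0, 20.5, 18.2, 27.2 and 94.9 CPM in KO tumors and 116, 26.1, 36.5, 13.8 and 21.02 CPM in NTC tumors, without separation (log2 fold change -0.06 ± 0.63 and 0.69 ± 0.49). *Ccl7* and *Ccl12* behaved like *Ccl2*, at -0.02 and -0.04 over 10 tumors and 0.82 and 0.29 over 9. *Ccr2* was at 87.2, 99.5, 41.9, 44.1 and 153 CPM in KO tumors and 173, 16.3, 63.5, 27.1 and 53.1 CPM in NTC tumors, with log2 fold changes of 0.37 ± 0.60 and 1.05 ± 0.47.

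The next ligands draw macrophages, effector T cells and NK cells, in part through CCR1. *Ccl6*, a constitutive macrophage ligand of CCR1, was at 373, 302, 116, 162 and 761 CPM in KO tumors and 915, 62.8, 140, 86.2 and 119 CPM in NTC tumors. Without NTC 1 only KO 3 overlapped the NTC tumors, and the log2 fold change went from 0.38 ± 0.78 to 1.71 ± 0.50. *Ccl9*, its neighbour in the genome, was at 35.7 to 237 CPM in KO tumors, 21.4 to 55.9 CPM in NTC 2 to 5 and 371 CPM in NTC 1, with log2 fold changes of 0.13 ± 0.80 and 1.54 ± 0.50. *Ccl5*, made by T and NK cells, was at 28.9, 73.1, 14.3, 5.94 and 61.2 CPM in KO tumors and 26.4, 6.56, 16.03, 4.59 and 24.7 CPM in NTC tumors. *Ccl3* and *Ccl4* had log2 fold changes of -0.07 and 0.26 over 10 tumors and 0.71 and 0.81 over 9. With the leukocyte covariate those were -0.79 (unadjusted p = 0.00775 by edgeR) and -0.65 (0.000308) over 10 tumors, and -0.64 (0.0658) and -0.73 (0.00103) over 9. *Ccr1* was at 16.8 to 77.3 CPM in KO tumors, 11.7 to 21.9 CPM in NTC 2 to 5 and 113 CPM in NTC 1. Over 9 tumors its log2 fold change was 1.15 ± 0.47, and with the covariate 0.14.

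The homeostatic members are made by stromal and epithelial cells. *Cxcl12*, made by fibroblasts and vessels, was at 44.3, 55.7, 23.2, 13.4 and 79.3 CPM in KO tumors and 111, 1.87, 18.6, 3.41 and 17.7 CPM in NTC tumors. *Cxcl14*, an epithelial and stromal chemokine, was at 7.82, 11.9, 14.7, 4.50 and 9.01 CPM in KO tumors and 11.7, 0.229, 7.40, 0.650 and 3.78 CPM in NTC tumors. NTC 2 and NTC 4 were the lowest tumors for both. In those tumors the 7 fibroblast markers summed to 57.6 and 246 CPM, against 924 to 5366 CPM in KO tumors and 1086 to 6040 CPM in the other NTC tumors, and the part of fibroblasts in the difference was not tested. *Cxcl14* was highest in KO 3, where the fibroblast sum was 1232 CPM. The 5 keratinocyte markers summed to 19.2 CPM in KO 3, 5.25 CPM in KO 4 and at most 2.69 CPM in the other tumors, and the 5 skeletal muscle markers to 31.1, 160 and at most 3.72 CPM, each marker list having members at 0 in some tumors. The part of these tissues in the *Cxcl14* values was not tested. The log2 fold change was 0.54 ± 0.94 and 2.02 ± 0.72 for *Cxcl12*, and 1.05 ± 0.82 and 1.64 ± 0.79 for *Cxcl14*. *Cxcr4*, the receptor of CXCL12 on most leukocytes, was at 16.6, 23.0, 6.79, 7.49 and 30.7 CPM in KO tumors and 37.1, 3.64, 8.98, 6.21 and 6.58 CPM in NTC tumors, with log2 fold changes of 0.47 ± 0.66 and 1.37 ± 0.46.

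The eosinophil group was led by *Ccl11*, at 7.27 to 37.1 CPM in KO tumors, 1.05 to 12.3 CPM in NTC 2 to 5 and 48.4 CPM in NTC 1. *Ccl24*, a macrophage ligand of CCR3, was at 0.531 to 8.06 CPM in KO tumors and 1.04 to 12.5 CPM in NTC tumors, with the highest value in NTC 4 (log2 fold change -0.16 ± 0.80 and -0.01 ± 0.85). The receptor *Ccr3* was at 9.42, 5.27, 4.04, 3.20 and 9.28 CPM in KO tumors and 8.61, 0.361, 2.14, 3.86 and 2.29 CPM in NTC tumors, and only KO 4 overlapped NTC 2 to 5. The difference was 0.90 ± 0.65 on the log2 scale over 10 tumors and 1.499 ± 0.57 over 9. The 4 eosinophil markers summed to 1.58 to 7.37 CPM in KO tumors and 0.524 to 7.13 CPM in NTC tumors, with *Prg2* and *Epx* at 0 in at least 1 tumor.

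The members of skin, gut and mucosal homing were mostly low. *Ccl25*, a gut and thymus ligand of CCR9, was at 15.4, 11.2, 13.01, 14.9 and 12.2 CPM in KO tumors and 12.4, 14.95, 16.1, 21.6 and 15.8 CPM in NTC tumors, with overlapping groups. The difference on the log2 scale was -0.28 ± 0.16 over 10 tumors and -0.39 ± 0.15 over 9 (adjusted p = 0.215 by edgeR), and *Ccl25* shares 2.74% of its exon bases with *Elavl1*. *Ccl27a* and *Ccl28*, ligands of CCR10, were at 1.18 to 3.64 and 0.378 to 2.15 CPM. *Ccr9* was at 0.235 to 1.40 CPM in KO tumors and 0.0656 to 2.29 CPM in NTC tumors, with log2 fold changes of 0.47 ± 0.85 and 1.58 ± 0.62, and 21.5% of its exon bases are shared with other genes. The CCR6 group was almost silent, with 7 reads on *Ccr6* and 1 on *Ccl20* over all tumors.

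Ligand reads were also set against the reads of a receptor in the same tumor. Such a ratio moves with either gene. It removes leukocyte content only as far as both genes follow it, which was not tested. This ratio needs no scaling between libraries. The ratio was formed for 19 pairs of a ligand and a receptor of the same group, chosen after their values were seen. The p-values of the ratios and their correction over these pairs do not account for that choice. It is the log2 ratio of reads with 0.5 added to each. Several ligands bind more than one receptor, and whether each pair acts together in these tumors was not tested. The log2 ratio of *Cxcl10* to *Cxcr3* was 5.02, 3.63, 4.50, 4.40 and 4.35 in KO tumors and 5.18, 6.85, 6.19, 5.38 and 6.19 in NTC tumors. All KO tumors lay below all NTC tumors, and the mean difference was -1.58 (exact two-sided permutation p = 0.00794, the smallest that 5 against 5 can give, adjusted over the 19 pairs to 0.0503). *Cxcl9* to *Cxcr3* differed by -0.93 (exact permutation p = 0.0238, adjusted 0.0905) and *Cxcl11* to *Cxcr3* by -1.71 (exact permutation p = 0.0238, adjusted 0.0905), with overlap in both. The 3 ratios share the reads of *Cxcr3*. They rest on the same reads as the log2 fold changes over 10 tumors, -0.39 for *Cxcl10* and 1.20 for *Cxcr3*, and are not separate evidence.

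The ratio of *Ccl8* to *Ccr2* ran the other way, and the groups did not overlap. *Ccl8* to *Ccr2* was 1.89, 1.47, 1.72, 1.52 and 1.62 in KO tumors and 0.60, 1.39, 0.91, 0.48 and 1.42 in NTC tumors, a difference of 0.68 (exact permutation p = 0.00794, adjusted 0.0503). Over 9 tumors the differences for *Cxcl10* to *Cxcr3* and *Ccl8* to *Ccr2* were -1.77 and 0.59, each with an exact permutation p of 0.0159, the smallest that 5 against 4 can give, and an adjusted p of 0.101. No ratio passed the correction. The other ligands set against *Ccr2* were lower in KO tumors, with overlap between the groups. Over 10 tumors the differences were -0.59 for *Ccl2*, -0.51 for *Ccl7* and -0.60 for *Ccl12*, so the rise was that of *Ccl8* alone among them. Of the other pairs, *Cxcl16* to *Cxcr6* differed by -0.16.

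**Figure D5:**
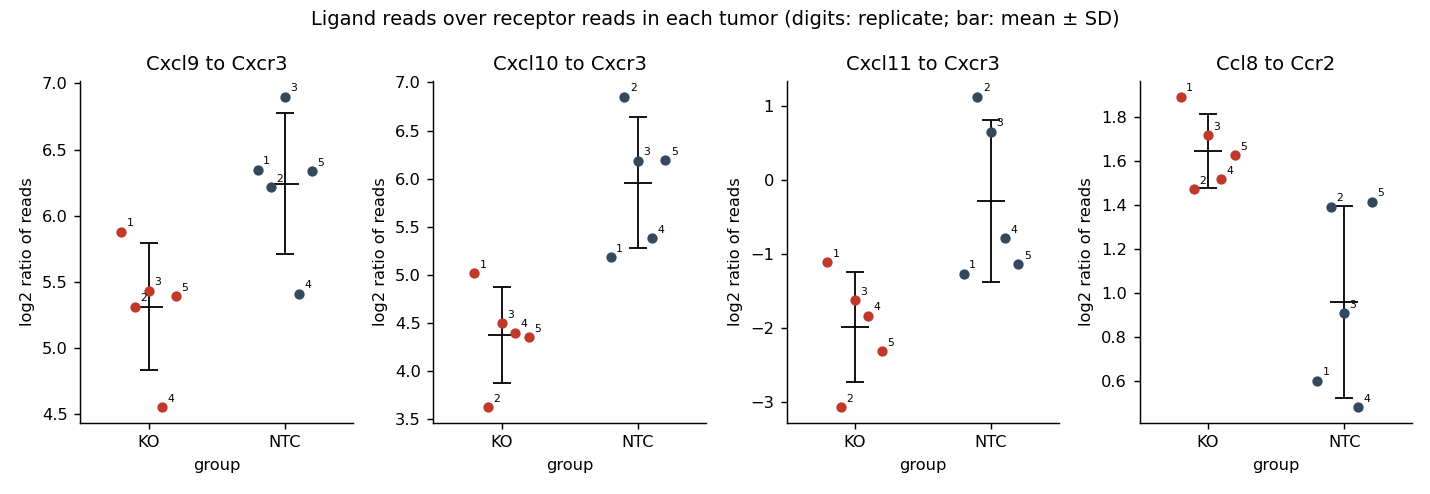
Log2 ratio of ligand reads to receptor reads (vertical axes, each with its own range) in the 5 KO tumors (red) and 5 NTC tumors (dark blue) for 4 pairs; digits give the replicate, and bars the mean with the SD. KO and NTC tumors do not overlap for *Cxcl10* to *Cxcr3* (difference -1.58) and for *Ccl8* to *Ccr2* (0.68).

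The genes that work with the family were counted in 4 lists. Of 16 genes that signal below chemokine receptors, 16 had a log2 fold change above 0 in both fits, with a median of 0.66 over 10 tumors and 1.26 over 9, and 2 and 13 had an unadjusted p under 0.05 on the higher side by edgeR, against 3.99% and 12% of all genes. The 2 over 10 tumors were *Grk6* (0.29) and *Grk2* (0.46), kinases that desensitize the receptors, and many of the others, such as *Dock2* (0.80 and 1.52) and *Vav1* (1.03 and 1.48), are leukocyte genes. With the leukocyte covariate the medians of the list were 0.01 and -0.01. Of the 6 tested chemokines and receptors outside the naming rule, *Cx3cl1*, a membrane-bound ligand of monocytes and NK cells, was at 3.77, 4.21, 5.55, 4.10 and 6.17 CPM in KO tumors and 2.29, 1.44, 3.94, 1.91 and 3.88 CPM in NTC tumors (log2 fold change 0.82, unadjusted p = 0.0245 by edgeR over 10 tumors). Only KO 1 lay inside the NTC range. *Pf4*, a platelet and macrophage chemokine, went from 0.06 over 10 tumors to 2.23 over 9, with 107 CPM in NTC 1. Among 7 tested inducers, *Ltb*, a lymphocyte cytokine of lymphoid tissue, had a log2 fold change of 1.37 over 10 tumors and 1.49 over 9 (unadjusted p = 0.0184 and 0.0157 by edgeR). Of the 4 atypical receptors, which remove chemokines without signalling, only *Ackr3* was tested, at -0.57 and 0.53.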

How the data were processed

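Bulk RNA-seq counts of 10 tumors were analysed. Per the labels, the authors used FastQC, Trimmomatic, HISAT2, HTSeq and mm10, and they deposited raw counts of reads per gene for each tumor. Annotation and strand setting are not given in the sources used here. The members and all lists were chosen with earlier results of these data known. Of the 20 pairs of tumors within a group, 0 had identical counts. P-values measure the spread between these tumors.

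KO and NTC were compared with edgeR 4.0.16 (quasi-likelihood, TMM, filterByExpr, Benjamini-Hochberg over all tested genes), called at an adjusted p under 0.05 and an absolute log2 fold change above 1. Standard errors were obtained from the fold change and its F statistic. CPM are scaled by TMM factors. Depth was 11896643 to 28682130 reads on genes, which limits low genes; counts carry no molecular identifiers. DESeq2 1.42.0, RLE or no scaling, other filters, robust dispersion, a replicate block, a leukocyte covariate and each tumor left out were alternatives. Ratios were compared with exact permutation tests (SciPy 1.17.1).

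Named members are the leading ligands and the receptors of each group, those at an unadjusted p under 0.05, those without overlap, the extremes and those the study names. Positions and 3′ UTRs came from GENCODE M21 (GRCm38), which held 52 of 53 members, and sequences from RefSeq. Code was tested on simulated data. Values of 1 member, its 3 ratios and 1 gene of a list are not reported here, but they entered all counts, sums and adjustments.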

Additional observations from a re-analysis of the deposited data

Results flagged for a closer look

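In 3 of 70 sets of 5 tumors, 1 tumor lay far from the other 4 on the log2 scale by Dixon's test, where chance gives about 1 in 20. *Cxcl2* was at 76.1 CPM in NTC replicate 1 against 0.162 to 0.598 in the other NTC tumors. *Ccr1* was at 113 CPM in NTC replicate 1 against 11.7 to 21.9. *Cxcl10* was at 92.2 CPM in NTC replicate 4 against 153 to 180. NTC replicate 1 also had the lowest depth and the most reads outside genes, and the part of these in its values was not tested.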

How the results depend on the processing

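Over 10 tumors, 5 of 35 members had an unadjusted p under 0.05 by edgeR (8.86% of all genes), against 10 of 35 with total counts only (8.84%), 11 of 48 without a filter (8.83%), 1 of 26 with at least 10 counts in every tumor (9.69%) and 8 of 48 by DESeq2 without a filter (5.05%). Leaving out 1 tumor gave 4 to 16, the most without NTC replicate 1 (20.1% of all genes) and 8 without KO replicate 4 (11.5%). Called members went from 0 to 1 by DESeq2 with a filter (0.607% of all genes in either direction) or without (0.263%). Over 9 tumors, calls went from 0 to 8 by DESeq2 and 9 without a filter (2.16% of all genes), and the 16 members at an unadjusted p under 0.05 (20.1%) to 4 with the leukocyte covariate (9.34%) and to 10 (without KO replicate 5, 13.2%) to 18 (without KO replicate 4, 26.8%) when 1 tumor was left out. The leukocyte covariate over 10 tumors turned the log2 fold change to -0.27 for *Ccr2*, -0.25 for *Ccl6*, -0.33 for *Ccl9*, -0.50 for *Ccr1*, -0.42 for *Cxcl9*, -0.31 for *Ccl11*, -0.12 for *Ccr9* and -0.27 for *Cxcr4*. *Ccl2* turned to 0.21 with total counts only and 0.040 without a filter. The labels do not say whether replicate numbers pair the tumors. Deviations of same-numbered tumors from their group means had correlations of -0.287 to 0.633, which cannot settle it. With a replicate block over 10 tumors, 6 members were at an unadjusted p under 0.05 by edgeR (10.3% of all genes), with 0 called. In that fit *Cxcl5* turned to 0.55, *Ccl2* to 0.024 and *Cxcl13* to 0.0089. Leaving out 1 tumor gave log2 fold changes from -4.36 to 1.18 for *Cxcl2*, -1.99 to 1.20 for *Cxcl5*, -0.65 to 0.69 for *Ccl2*, -0.14 to 1.71 for *Ccl6*, -0.32 to 1.54 for *Ccl9*, -0.45 to 1.15 for *Ccr1*, -0.041 to 0.41 for *Cxcl9*, -0.32 to 1.37 for *Ccl11*, -0.49 to 0.55 for *Ccl24*, -1.79 to 0.43 for *Cxcl13* and -0.30 to 0.085 for *Ccl27a*. *Cxcr3* stayed at 1.02 to 1.42 and *Ccr7* at 1.52 to 2.20. The *Cxcl10* to *Cxcr3* difference stayed between -1.77 and -1.36. The cause of these shifts was not tested. The members that did not pass the filter over 10 tumors had 0 to 215 reads in all and were not tested there.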
